A study of Mus musculus with 3 samples.

Results

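The genes described here are 9 genes of osteoclast formation and bone resorption: Tnfrsf11a, Oscar, Nfatc1, Dcstamp, Ocstamp, Atp6v0d2, Acp5, Ctsk and Calcr. They were picked by gene symbol for their known roles, with earlier results of these data known, and 8 of the 9 had a row among the 17239 gene names in the data. RNA-seq was performed on whole bone marrow (BM) cells of C57BL/6 mice aged 6 to 8 weeks, flushed out of the long bones and the pelvis. Mice received recombinant LECT2, a secreted protein made mainly by the liver and here produced in CHO cells, under the skin at 300 μg per kg of body weight daily. The 3 groups were LECT2 for 0 days (no injection is given in the labels), LECT2 for 3 days and LECT2 for 5 days, and all 3 shared the strain, the age range and the method of marrow collection. Each time point was 1 library, and how many mice went into a library is not stated in the labels. No p-value can therefore be given for a difference between days. The 95% exact intervals below cover counting error only, and PCR copies are not independent molecules.

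Osteoclasts are the large multinucleated cells that dissolve bone. They form from precursors of the monocyte and macrophage lineage under M-CSF and RANKL, the ligand of the receptor RANK, with a second input from ITAM-coupled receptors such as OSCAR, and these signals converge on the transcription factor NFATc1. NFATc1 drives the genes for cell fusion, for the proton pump that acidifies the bone surface, and for the enzymes that digest the matrix.

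Among the members with more than 3 reads in every library, Ctsk had the largest difference between days. Its level was 5.52-fold lower after LECT2 for 5 days than at 0 days by read counts normalised to the library total (95% exact interval 3.45 to 9.26). Dcstamp, a fusion gene with few reads, was also lower after LECT2, and Tnfrsf11a, which encodes RANK, was 2.39-fold higher at 5 days (1.49 to 3.93). Acp5 and Nfatc1, the most abundant members, differed by less than 1.5-fold between any pair of days. The members did not move as 1 block.

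Levels below are in RPKM, the reads on a gene normalised to its length and to the total of reads on genes in the library. Changes are log2 ratios of RPKM plus 0.1, the small constant that keeps genes with few reads finite. A gene was called higher or lower when it differed at least 2-fold and reached 1 RPKM in either library of the comparison. Libraries with 3 reads or fewer on a gene were treated as being at the floor, which corresponds to 0.136 RPKM at 0 days for Acp5 and 0.0385 RPKM at 0 days for the longer Tnfrsf11a.

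**Figure D1:**
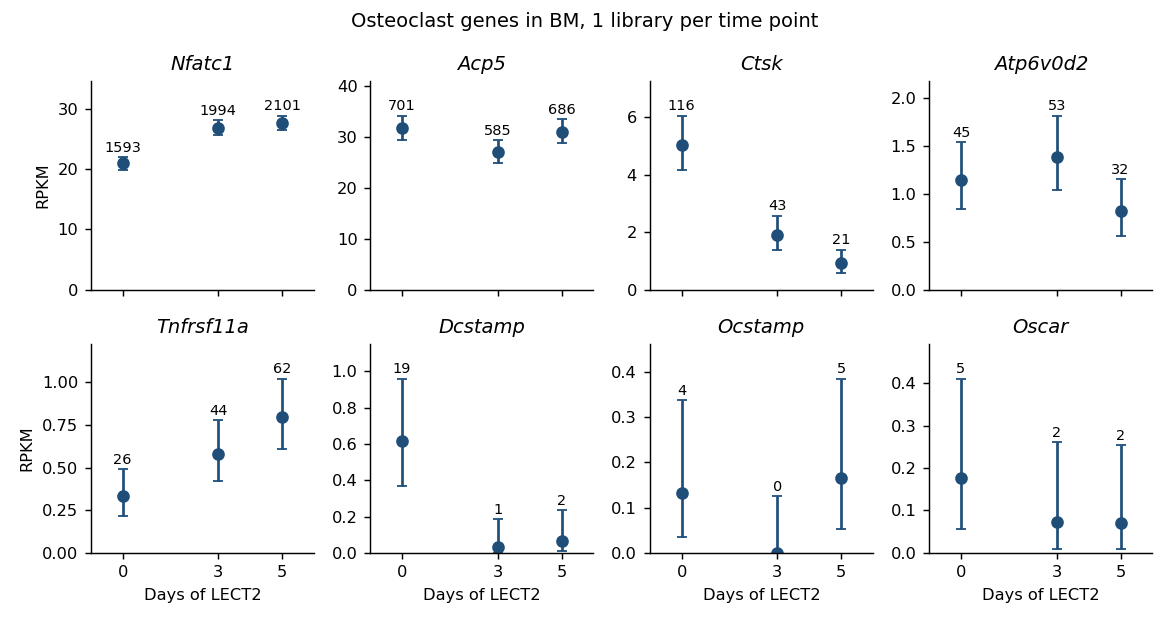
Level of the 8 members with a row, in RPKM on linear axes that start at 0, against days of LECT2, with 1 library per point, 95% exact Poisson intervals as bars and the number of reads above each point. Ctsk goes from 116 reads to 43 and 21 while Tnfrsf11a goes from 26 to 44 and 62, and Dcstamp has 19, 1 and 2 reads.

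Acp5, Nfatc1 and Ctsk had the highest levels in every library. At 0 days Acp5 had 31.7 RPKM, Nfatc1 21.0 RPKM and Ctsk 5.04 RPKM, and the intervals of these neighbours did not overlap. At 3 and 5 days the intervals of Acp5 and Nfatc1 overlapped, as did those of Ctsk and Atp6v0d2. The next members, Atp6v0d2 with 1.15 RPKM, Dcstamp with 0.614 RPKM, Tnfrsf11a with 0.333 RPKM, Oscar with 0.176 RPKM and Ocstamp with 0.132 RPKM, each overlapped the next in their intervals. At 5 days the members below Nfatc1 were Ctsk with 0.913 RPKM, Atp6v0d2 with 0.819 RPKM and Tnfrsf11a with 0.796 RPKM, and these 3 could not be ordered within counting error. Thus 2 members, Acp5 and Nfatc1, carried most of the summed level of the group, which was 60.1 RPKM on day 0, 58.0 RPKM on day 3 and 61.5 RPKM on day 5. These 2 genes are also used outside osteoclasts, Acp5 in tissue macrophages and Nfatc1 in lymphocytes.

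Several osteoclast genes had few reads. Of the 8 members with a row, 4 had a mean under 1 RPKM: Tnfrsf11a, Dcstamp, Oscar and Ocstamp. Oscar had 5, 2 and 2 reads at 0, 3 and 5 days, Ocstamp had 4, 0 and 5 reads, and Dcstamp was at the floor in both LECT2 libraries. Calcr, the calcitonin receptor gene, had no row. The name of the group therefore describes what these genes do in osteoclasts, and no osteoclasts were isolated here. Csf3r, the G-CSF receptor gene of neutrophils, singled out after its values were seen, was also listed with few reads, 25, 57 and 20 at 0, 3 and 5 days.

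Among the receptors, Tnfrsf11a encodes RANK, the receptor for RANKL on osteoclast precursors, and lies on mouse chr1:105780718-105847981 (GRCm38, plus strand). It had 26 reads on day 0, 44 on day 3 and 62 on day 5, giving 0.333, 0.578 and 0.796 RPKM. Each later library was higher than the one before. The log2 ratio was 0.65 at 3 days against 0 days (95% interval 0.06 to 1.55) and 1.05 at 5 days against 0 days (0.57 to 1.97). Between 5 and 3 days the log2 ratio was 0.40, with an interval (-0.12 to 1.05) that included no change. Across the 11141 genes whose mean level reached 1 RPKM, the median log2 ratio at 5 days against 0 days was 0.31. Under trimmed-mean (TMM) scaling, which brought that median to 0.01, Tnfrsf11a was at 0.79, and with a trend of log2 ratio on gene length removed it was at 0.70. Removing that trend left the median of all genes at 0.31. Tnfrsf11a stayed below 1 RPKM in every library and so entered no count of called members. Of 11 related receptor genes tested, 3 were called higher and 1 lower at 5 days against 0 days, beside 15.5% and 5.91% of all genes, and with TMM scaling 1 and 2. With the length trend removed 3 were higher and none lower. Tnfrsf1a, a TNF receptor gene, was the most abundant of these, with 40.5, 63.6 and 57.1 RPKM.

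Oscar encodes a collagen receptor that signals through the FcR gamma chain, and its 5, 2 and 2 reads were 0.176, 0.0720 and 0.0703 RPKM. At 5 days against 0 days the interval of its ratio of normalised counts, 0.0381 to 2.44, included no change. No difference in Oscar was detectable at this depth.

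Nfatc1, the master transcription factor of osteoclast differentiation, had the most reads of all members: 1593 on day 0, 1994 on day 3 and 2101 on day 5. The levels were 21.0, 26.9 and 27.7 RPKM, and both LECT2 libraries were above the 0-day library. Its log2 ratio was 0.36 at 3 days (0.26 to 0.46) and 0.40 at 5 days (0.31 to 0.50), near the median of all genes at 5 days. With TMM scaling these values were 0.27 and 0.09, and the 5-day value against 3 days turned from 0.04 to -0.18. With the length trend removed they were 0.08 at 3 days and 0.06 at 5 days, beside 0.10 and 0.31 for all genes. The difference in Nfatc1 thus changed with the scaling of the libraries. The genes whose pair of log2 ratios lay nearest to that of Nfatc1 were Stag2, Spata30 and Chd2, out of 8188 genes whose mean reached 5 RPKM. As many as 148 of these genes lay within a distance of 0.1, and both ratios share the 0-day library.

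For cell fusion, Dcstamp encodes DC-STAMP, a membrane protein that precursors need to fuse and that is also known from dendritic cells. Dcstamp (chr15:39745930-39760938, GRCm38, plus strand) had 19 reads on day 0, 1 on day 3 and 2 on day 5, or 0.614, 0.0331 and 0.0647 RPKM. The 0-day library was high and both LECT2 libraries were at the floor. By normalised counts the level was 18.5-fold lower at 3 days (2.95 to 770) and 9.49-fold lower at 5 days (2.29 to 84.1), and the width of these intervals reflects the 1 and 2 reads behind them. The dendritic cell markers were measured beside it. Of 8 tested, 1 was called lower and none higher at 3 days, beside 2.41% and 4.08% of all genes. Their summed level was 430 RPKM on day 0, 284 on day 3 and 360 on day 5, with no marker at 0. Their part in the Dcstamp difference was not tested.

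Ocstamp, which encodes the related fusion protein OC-STAMP, had 4, 0 and 5 reads, or 0.132 RPKM at 0 days and 0.165 RPKM at 5 days. At 5 days against 0 days the ratio of normalised counts was 1.25 (0.269 to 6.30). For the 0 reads at 3 days, the floor of 3 reads on this gene corresponds to 0.101 RPKM, and the 95% exact upper limit was 0.125 RPKM.

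Atp6v0d2 encodes the d2 subunit of the V-type proton ATPase, which is enriched in osteoclasts and takes part in fusion as well as in acid secretion. This gene (chr4:19876841-19922605, GRCm38, minus strand) had 45 reads on day 0, 53 on day 3 and 32 on day 5, which gave 1.15, 1.39 and 0.819 RPKM. The 3-day library was the highest and the 5-day library the lowest. The log2 ratios against 0 days, 0.25 at 3 days (-0.33 to 0.88) and -0.44 at 5 days (-1.19 to 0.19), both included no change, whereas 5 against 3 days gave -0.70 (-1.44 to -0.10). Its ubiquitous paralog Atp6v0d1, named after its values were seen, was far more abundant, with 101 RPKM on day 0, 89.2 on day 3 and 76.3 on day 5. The ratio of Atp6v0d2 to Atp6v0d1 within a library was 0.0114 on day 0, 0.0156 on day 3 and 0.0107 on day 5, and its log2 change at 5 days was -0.09 (-0.79 to 0.61).

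Acp5 encodes the tartrate-resistant acid phosphatase (TRAP), the enzyme stained to identify osteoclasts. It had 701 reads on day 0, 585 on day 3 and 686 on day 5, or 31.7, 27.1 and 31.0 RPKM. The 3-day library was the lowest, 1.17-fold below the 0-day library, and the intervals of the levels in all 3 libraries overlapped. The log2 ratio was -0.22 at 3 days (-0.39 to -0.07) and -0.03 at 5 days (-0.18 to 0.12). These small differences did not keep their size or sign: with the trend of log2 ratio on gene length removed they were 0.08 and 0.30, and with TMM scaling they were -0.31 and -0.34. The medians of all genes were 0.10 and 0.31 with the trend removed, and 0.02 and 0.01 with TMM scaling. The exons of Acp5 (chr9:22126727-22135711, GRCm38, minus strand) overlap those of 6530413G14Rik on the opposite strand. The strand used in counting is not given in the sources used here, so reads of these 2 genes cannot be told apart. No row bore the name 6530413G14Rik.

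Ctsk encodes cathepsin K, the collagen-degrading protease of the resorption pit (chr3:95499256-95509362, GRCm38, plus strand). It had 116 reads on day 0, 43 on day 3 and 21 on day 5, corresponding to 5.04, 1.92 and 0.913 RPKM. The 3 libraries did not overlap in their intervals between 0 days and either later day, and each later library was lower. The log2 ratio was -1.35 at 3 days (-1.94 to -0.88) and -2.34 at 5 days (-3.21 to -1.79). At 5 against 3 days it was -0.99 (-1.90 to -0.28), just short of 2-fold, and with TMM scaling it was -1.20. With the length trend removed the differences from 0 days were -1.06 and -2.04, so Ctsk remained lower at least 2-fold at both times under each of the scalings tried.

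Of the 4 members that reached 1 RPKM in either library, Acp5, Ctsk, Nfatc1 and Atp6v0d2, 1 was called lower at 3 days against 0 days and none higher. Among all genes, 2.41% were called lower and 4.08% higher in that comparison. At 5 days against 0 days Ctsk was again the single member called, as lower, beside 5.91% of all genes lower and 15.5% higher. At 5 against 3 days no member was called, beside 3.46% of all genes lower and 1.95% higher. The median log2 ratio of the 4 members was 0.01, -0.24 and -0.33 in these comparisons, against 0.10, 0.31 and 0.25 for all genes. With 4 genes, 1 called member is too few to set apart from the share called in all genes.

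**Figure D2:**
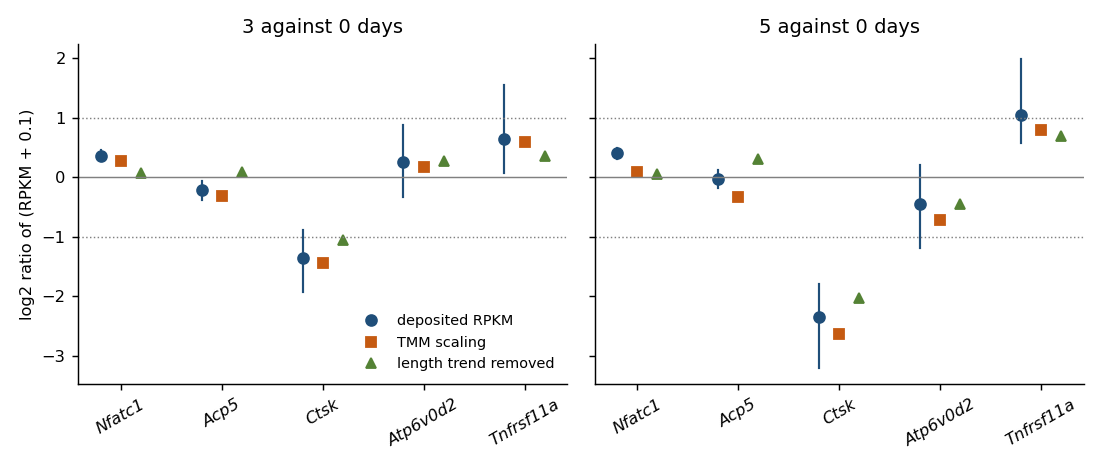
Log2 ratio of RPKM plus 0.1 for the 5 members with more than 3 reads in every library, at 3 and 5 days against 0 days, from the deposited RPKM (circles, with 95% exact intervals of counting error), after TMM scaling (squares) and with the length trend removed (triangles). Dotted lines mark 2-fold; Ctsk lies below the lower line under every scaling in both panels, while the sign of Acp5 changes with the scaling.

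Longer genes had higher log2 ratios in these libraries. Acp5 and Ctsk are of similar length (1425 and 1482 bases) and fall in the second of 10 length classes, whose median log2 ratio at 5 days against 0 days was -0.09. Tnfrsf11a and Nfatc1 (5022 and 4896 bases) fall in the ninth, with a median of 0.66. A ratio of 2 genes within 1 library does not depend on the scaling of that library, and between genes of like length it depends little on the length trend.

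The Acp5 to Ctsk ratio of RPKM was 6.28 on day 0, 14.1 on day 3 and 34.0 on day 5. It was 2.25-fold higher at 3 days (1.54 to 3.33) and 5.41-fold higher at 5 days (3.33 to 9.16). The 2 resorption enzymes thus diverged, with Acp5 near its starting level and Ctsk lower. The Tnfrsf11a to Nfatc1 ratio was 0.0159, 0.0215 and 0.0288, and it was 1.81-fold higher at 5 days than at 0 days (1.12 to 2.99). The Ctsk to Tnfrsf11a ratio, of the enzyme to the receptor, went from 15.1 to 3.31 and 1.15, or 13.2-fold lower at 5 days (6.55 to 26.7), but these genes differ in length. The Acp5 to Nfatc1 ratio was 1.51, 1.01 and 1.12. In all, 10 pairs of the 5 members with more than 3 reads in every library were compared.

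**Figure D3:**
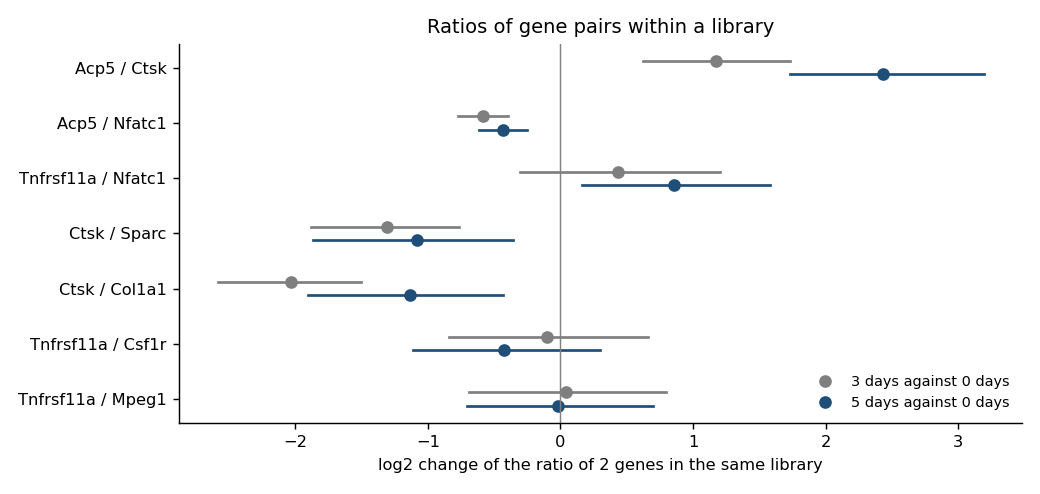
Log2 change from 0 days of the ratio of 2 genes in the same library, at 3 days (grey) and 5 days (blue), with 95% intervals of counting error; the first 3 rows are pairs of members and the rest set a member beside a marker of another cell type. Acp5 to Ctsk lies to the right of 0, both Ctsk ratios to Sparc and Col1a1 lie to the left, and the Tnfrsf11a ratios to Csf1r and Mpeg1, which are among the 6 of 17 macrophage and monocyte markers called higher, include 0.

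The upstream sequences of Ctsk, Acp5 and Tnfrsf11a are shown because these are the lower, the level and the higher member with enough reads for an interval. RefSeq (GRCm38.p6) promoter entries were used for 5 of the 9 members. Dcstamp, Ocstamp and Atp6v0d2 had no entry, and Nfatc1 was left out of the search. Each sequence is the 250 bases before the annotated start, read 5′ to 3′ on the gene's strand, with motif letters in capitals. The positions are chr3:95498960-95499209 on the plus strand for Ctsk, chr9:22130599-22130848 on the minus strand for Acp5 (the start lying furthest downstream of 3) and chr1:105780473-105780722 on the plus strand for Tnfrsf11a.
Ctsk: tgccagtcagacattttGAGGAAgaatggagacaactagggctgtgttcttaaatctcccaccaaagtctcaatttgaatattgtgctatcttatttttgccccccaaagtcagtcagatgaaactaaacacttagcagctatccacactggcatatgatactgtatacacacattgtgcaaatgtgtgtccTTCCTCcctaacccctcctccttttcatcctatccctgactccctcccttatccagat
Acp5: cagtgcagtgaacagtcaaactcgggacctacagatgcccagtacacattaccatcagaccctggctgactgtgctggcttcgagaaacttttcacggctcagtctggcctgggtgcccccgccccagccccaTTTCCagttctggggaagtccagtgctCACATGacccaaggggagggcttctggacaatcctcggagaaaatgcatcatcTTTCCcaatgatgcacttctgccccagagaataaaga
Tnfrsf11a: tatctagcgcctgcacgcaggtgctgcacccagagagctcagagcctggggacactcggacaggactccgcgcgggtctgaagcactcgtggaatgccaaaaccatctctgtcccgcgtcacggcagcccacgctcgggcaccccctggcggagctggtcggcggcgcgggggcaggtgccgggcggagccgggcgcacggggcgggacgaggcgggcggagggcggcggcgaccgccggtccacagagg
The motifs searched on both strands were GGAAA (the NFAT core), GAGGAA (the PU.1 core, which overlaps the NFAT core when followed by A), TGANTCA (AP-1), CATGTG (an E-box bound by MITF) and CACGTG (the palindromic E-box). The Ctsk window held 2 matches to GAGGAA and none to GGAAA. The Acp5 window shown held 2 matches to GGAAA and 1 to CATGTG, and the windows of the other 2 Acp5 starts each held 1 match to GGAAA and none to the other motifs. The Tnfrsf11a window held no match to any of the 5 and had a GC content of 73.6%, against 43.2% for Ctsk and 54.4% for Acp5. Of 32851 windows of the same length, 55.6% held GGAAA, 23.3% GAGGAA, 6.75% TGANTCA, 12.3% CATGTG and 6.02% CACGTG, so such matches are common. A match describes letters only, and binding was not measured.

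Calcr, the receptor for calcitonin, the hormone that restrains osteoclasts, lies on chr6:3685680-3764714 (GRCm38, minus strand) and had no row, so no level is given. If it was counted and had 0 reads, 3 reads on its longest transcript of 3763 bases would be 0.0514 RPKM at 0 days. The family was represented by Calcrl, the receptor for CGRP and adrenomedullin, with 2.87, 3.40 and 3.83 RPKM, and by its partner Ramp1, with 30.5, 20.6 and 24.4 RPKM. Ramp3, named after its values were seen, had 25 reads on day 0, 11 on day 3 and 3 on day 5.

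Cathepsin K was a minor cathepsin of the marrow. By RPKM it ranked 13th of 15 cathepsin genes at 0 days, 14th at 3 days and 15th at 5 days, and it made up 0.424%, 0.158% and 0.0648% of their summed level. The most abundant were Ctsd, the lysosomal aspartic protease, with 313, 321 and 234 RPKM, and Ctsg, the granule serine protease of neutrophil precursors, with 213, 192 and 291 RPKM. At 5 days against 0 days 1 of the 14 other cathepsins was called higher and 1 lower, beside 15.5% and 5.91% of all genes. The higher one was Ctsc, the activator of granule proteases, at 41.1, 77.7 and 134 RPKM. The lower one was Ctsl, at 42.8, 26.1 and 20.7 RPKM. With the length trend removed, 2 were higher and none lower.

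**Figure D4:**
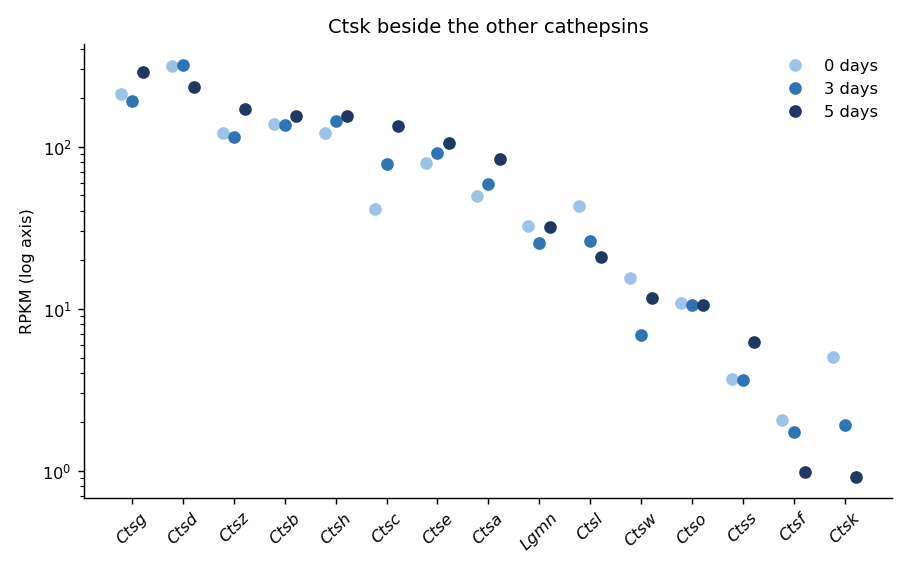
RPKM on a log axis of Ctsk and the 14 other cathepsin genes at 0, 3 and 5 days of LECT2, ordered by their level at 5 days, with 1 library per point. Ctsk is at the right end, with 5.04, 1.92 and 0.913 RPKM, and most other cathepsins are above 10 RPKM in every library.

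The other paralogs gave a similar frame. Acp5 was second of 6 acid phosphatase genes at 0 days and first at 3 and 5 days, with Acp1 beside it at 32.6, 24.6 and 27.4 RPKM. Acpp was lower at 5 days, with 21.1, 20.7 and 7.28 RPKM. Nfatc1 was first of 9 genes of the NFAT list at 0 days and second at 3 and 5 days, when Nfatc3, at 19.6, 32.9 and 45.7 RPKM, stood above it. Of the 6 other NFAT list genes tested, 4 were called higher at 5 days and none lower, beside 15.5% and 5.91% of all genes. With TMM scaling 1 was higher, as was 1 with the length trend removed. Atp6v0d2 ranked 19th of 23 V-ATPase genes in all 3 libraries.

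The pathway around the members was described from gene lists, and Csf1r, Irf8, Src, Tcirg1, Mmp9 and Car2 each stood in 2 lists, marker lists included. In the list of RANK, M-CSF and ITAM signalling genes, 4 of 21 tested were called higher and 2 lower at 5 days against 0 days. The shares of all genes were 15.5% higher and 5.91% lower. This list had a median log2 ratio of 0.47, beside 0.31 for all genes. With the length trend removed 3 were higher and 1 lower. Csf1r, the M-CSF receptor gene, had 26.7, 49.6 and 85.3 RPKM. Cbl, an adaptor and ubiquitin ligase downstream of M-CSF receptor and RANK, had the largest change in the list, with 2.56, 15.4 and 24.0 RPKM. Fcer1g and Tyrobp, the ITAM adaptors on which OSCAR and TREM2 signal, were the most abundant, and Fcer1g was at 1706, 1307 and 851 RPKM. Both adaptors are also abundant in other myeloid cells.

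The gene of the ligand had fewer reads in both LECT2 libraries. Tnfsf11, which encodes RANKL, had 51 reads on day 0, 16 on day 3 and 6 on day 5, a log2 ratio of -2.52 at 5 days (-4.60 to -1.87); it was singled out after its values were seen. The Ctsk to Tnfsf11 ratio was 3.44, 4.07 and 5.30, and its log2 change at 5 days, 0.62, had an interval (-0.85 to 2.30) that included no change. Tnfrsf11b, which encodes the RANKL decoy osteoprotegerin, had no row.

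Among the transcription factors of osteoclasts, none of 18 was called at 3 days, and 4 were called lower and none higher at 5 days against 0 days. Of all genes, 2.41% were called lower and 4.08% higher at 3 days, and 5.91% lower and 15.5% higher at 5 days. Fos, an AP-1 subunit that osteoclast formation requires, had 700, 890 and 319 RPKM, and Jund had 448, 310 and 140 RPKM. Both are also early response genes or partners of them in many cells. The median of this list was -0.11 at 5 days, beside 0.31 for all genes.

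Of the inhibitors of osteoclast formation, 1 of 13 was called lower at 5 days, Tnfaip3, which encodes the NF-kappaB inhibitor A20 and had 170, 122 and 48.5 RPKM. The abundant Lilrb4 and Ptpn6, an inhibitory receptor and the phosphatase it recruits, had 217, 285 and 135 RPKM and 181, 216 and 213 RPKM. In the fusion and sealing zone list, 3 of 18 were called higher and 2 lower at 5 days, where 15.5% of all genes were called higher and 5.91% lower. Itgav, the alpha subunit of the osteoclast vitronectin receptor, had 2.11, 3.94 and 5.03 RPKM, and Adam8, a membrane protease, had 106, 122 and 25.6 RPKM. With TMM scaling none was higher and 2 were lower, and with the length trend removed none was higher and 1 was lower.

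In the list of acid secretion and matrix degradation, 1 of 15 was called higher and 1 lower at 5 days (2 and 1 without the length trend). The shares of all genes at 5 days were 15.5% higher and 5.91% lower. Clcn7, the chloride transporter of the ruffled border and of lysosomes, had 5.87, 10.4 and 15.2 RPKM. Mmp9, a gelatinase of osteoclasts and also of neutrophils, had 353, 556 and 101 RPKM. Among the V-ATPase subunits 1 of 18 was called higher, Atp6v0a2, and 2 lower, Atp6v1e1 and Atp6v1f, at 5 days, and 5 were lower with TMM scaling and none with the length trend removed. Atp6v1f had 283, 169 and 123 RPKM.

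**Figure D5:**
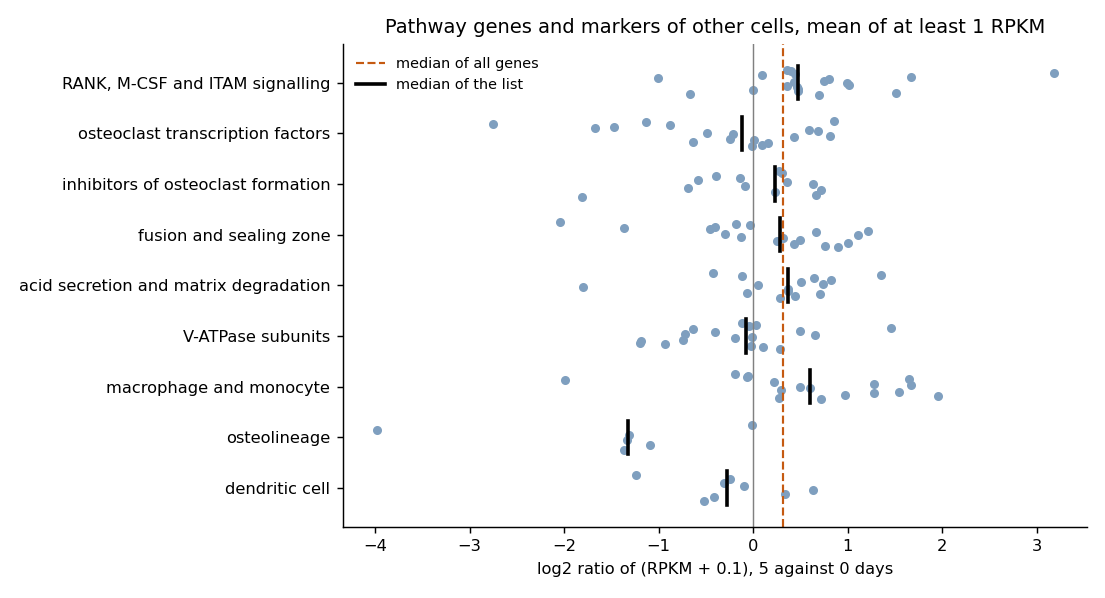
Log2 ratio of RPKM plus 0.1 at 5 days against 0 days for genes averaging 1 RPKM or more in the pathway lists and in the marker lists of 3 other cell types, 1 point per gene, with the list median as a black bar and the median of all genes, 0.31, as a dashed line. Of the lists drawn, the osteolineage markers lie lowest, with a median of -1.32, and the macrophage and monocyte markers highest, with a median of 0.60. The third marker list is that of dendritic cells. Late neutrophil markers, with a median of -1.93, are not drawn.

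Whole marrow is a mixture, and in such a sample fewer cells of a type and less RNA per cell cannot be told apart. Ctsk is also expressed by cells of the osteolineage and by fibroblasts. Of the osteolineage markers, which had rows for 11 of 11 names and none at 0, 6 of 7 tested were called lower at 5 days against 0 days and none of 7 was called at 3 days. Of all genes, 5.91% were called lower at 5 days, and 2.41% lower and 4.08% higher at 3 days. The summed level of the osteolineage markers was 63.5 RPKM on day 0, 66.6 on day 3 and 25.7 on day 5. Col1a1, the main collagen chain of bone, had 13.7, 21.3 and 5.45 RPKM, Sparc had 16.0, 15.1 and 6.14 RPKM, and Bglap, which encodes osteocalcin, had 43, 30 and 2 reads. The markers did not move alike at 3 days: Col1a1 had a log2 ratio of 0.63, whereas Ibsp, a bone matrix protein gene named after its values were seen, had -0.57 (-0.85 to -0.31). Not all markers were lower at 5 days. Alpl, which encodes alkaline phosphatase, had 137, 116 and 136 reads, and Runx2, an osteolineage transcription factor, had 13, 26 and 27 reads (log2 ratio 0.69, interval 0.05 to 2.13). Both were named after their values were seen.

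The ratio of Ctsk to Col1a1 was 0.369 on day 0, 0.0901 on day 3 and 0.168 on day 5, and that of Ctsk to Sparc was 0.315, 0.127 and 0.149. At 3 days these ratios were 4.09-fold (2.83 to 6.00) and 2.48-fold (1.70 to 3.68) lower than at 0 days, and at 5 days 2.20-fold (1.35 to 3.74) and 2.11-fold (1.28 to 3.64) lower. Ctsk (1482 bases) is shorter than Sparc (2299 bases) and Col1a1 (4709 bases), so these ratios carry the length trend. With that trend removed, the log2 ratios at 5 days against 0 days were -2.04 for Ctsk, -1.64 for Col1a1 and -1.32 for Sparc. At 3 days they were -1.06, 0.37 and -0.02. These pairs were chosen after the values were seen, and ratios of Ctsk to the other osteolineage markers were not computed. Those markers lay on both sides of Ctsk at 5 days against 0 days. Bglap, with 2 reads at 5 days, had a log2 interval of -7.52 to -2.48, and Alpl had 1 of -0.36 to 0.34. The part of osteolineage cells in the Ctsk difference was not tested.

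Macrophage and monocyte markers did not move alike. They had rows for 17 of 18 names (Emr1 and Adgre1 name the same gene), none at 0. Their summed level was 1577 RPKM on day 0, 1791 on day 3 and 2120 on day 5. At 5 days 6 of 17 were called higher (4 with TMM scaling), 10 neither and 1 lower, Cd14. The shares of all genes were 15.5% higher and 5.91% lower. C1qa, C1qb and C1qc, complement genes of tissue macrophages named after their values were seen, had log2 ratios of -0.20, -0.05 and -0.06 at 5 days, and Ly6c2, a monocyte gene, had 0.29. Mpeg1, a pore-forming protein of macrophages, had 127, 214 and 307 RPKM. The ratio of Tnfrsf11a to Mpeg1 was 0.00263, 0.00270 and 0.00259, and its log2 change at 5 days was -0.02 (-0.70 to 0.70). The ratio of Tnfrsf11a to Csf1r was 0.0125, 0.0117 and 0.00933, with a log2 change of -0.42 (-1.11 to 0.30). Both intervals included no change, but these 2 markers, chosen after the values were seen, are among the 6 called higher, and ratios to the other markers were not computed. The part of the macrophage share in its level was not tested.

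The libraries were of like depth, 15146983 to 15523952 reads on genes. The largest marker shift was in late neutrophils, whose summed level was 139225 RPKM on day 0, 108039 on day 3 and 38246 on day 5. Of their markers, 10 of 10 tested were called lower at 5 days, or 8 with the length trend removed. The shares of all genes called lower were 5.91% at 5 days and 2.41% at 3 days. Erythroid markers went from 4689 to 3820 and 1775 RPKM, with 2 of 9 called lower at 5 days (3 with TMM scaling, 1 with the length trend removed). B cell markers went from 2058 to 1643 and 1468 RPKM, with none of 8 called, or 1 lower at 5 days with TMM scaling. T and NK cell markers had 267, 174 and 243 RPKM, with 4 of 9 called lower at 3 days, or 1 of 9 with the length trend removed. The part of these shifts in the values of Ctsk, Dcstamp and Tnfrsf11a was not tested.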

How the data were processed

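Poly(A) RNA of BM cells, 1 library per time point, was sequenced by the authors. They deposited whole read counts per gene, with a gene length, and an RPKM, which equalled counts over length and library total (tolerance 0.001) except in 18 rows at 0 days and 14 at 3 days, each with at most 36 reads; the methods name Cufflinks (1.0.3) and the submitters' processing notes list build mm8. The aligner is not given in the sources used here. The deposited log2 ratios, p-values and FDR were not used. A deposited RPKM of 0.01 stands for 0 reads and was taken as 0. Groups came from the labels. The members and lists were chosen with earlier results of these data known.

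Ratios are log2 of RPKM plus 0.1, with 95% exact (Clopper-Pearson) intervals of count ratios, and conditional intervals for pairs of genes (scipy 1.17.1). Genes were named by a rule: all members, paralogs averaging 1 RPKM or more and, from each list, the 2 most abundant genes and the largest rise and fall by day 5 in those reaching 5 RPKM. Not every gene the rule allows is named, and exceptions are marked in the text. Alternatives were pseudocounts of 1 and 0.01 RPKM, TMM (edgeR 4.0.16) and median-of-ratios (DESeq2 1.42.0) scaling of the deposited counts, scaling without the 100 most abundant genes, the sum of all 17559 rows, other thresholds, and removal of a lowess trend on length (span 0.3). The calls and intervals were tried on counts simulated with counting error only, with 4-fold changes placed in genes averaging at least 5 RPKM. That trial covers neither differences between mice nor changes in genes with lower levels. Coordinates are GRCm38 (GENCODE), not the authors' build.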

Additional observations from a re-analysis of the deposited data

How the results depend on the processing

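With 1 library per time point no replicate could be left out, no p-value given and no paired analysis made, so differences between mice are not covered. Of 93 recomputed counts and medians 79 stayed near their first value, meaning a count within 1.5-fold or a median within the typical counting interval of the members. That range is wide: at 5 days against 0 days a median of -0.53 with TMM scaling counted as near -0.24. Summing all rows could not move a member, since no member had more than 1 row. Without a minimum level, members at least 2-fold lower numbered 3 at 3 days and 2 at 5 days against 0 days, and 1 was higher at 5 days against 0 days and 1 at 5 against 3 days. Apart from Ctsk, the members counted there have means under 1 RPKM. With a threshold of 4-fold no member was lower at 3 days (0 of 4). At 5 against 3 days 1 member, Ctsk, was lower with a pseudocount of 0.01 RPKM, with TMM, after leaving out the 100 most abundant genes and with median-of-ratios (1 each), and 2 were lower at 1.5-fold. Over all members with a row, the median log2 ratio became -0.45 on day 3 and 0.12 between days 5 and 3. It was 0.18 at 5 days and 0.12 at 5 against 3 days over those with a mean of at least 5 RPKM, Acp5 and Nfatc1. Acp5 changed sign to 0.084 at 3 days with the length trend removed, and to -0.029 (TMM) and -0.023 (median-of-ratios) at 5 against 3 days. The cause was not tested. With a pseudocount of 1 RPKM the log2 ratio at 5 days against 0 days became 0.43 for Tnfrsf11a and -1.66 for Ctsk. Dcstamp, Ocstamp and Oscar had at most 19 reads in any library, so depth limits what can be said of them.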
